A study of Homo sapiens with 45 samples.

Results

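The transcripts of 10 autophagy genes were followed through 45 RNA-seq libraries of HAP1, a near-haploid human cell line derived from the leukaemia line KBM-7. The genes were chosen by name, and each matched 1 of 60676 entries of the deposited gene count table. They are the cargo receptors SQSTM1 and NBR1, the ATG8 proteins MAP1LC3B, GABARAP, GABARAPL1 and GABARAPL2, the conjugation genes ATG12 and ATG5, the phosphoinositide-binding protein WIPI1 and the initiating kinase ULK1.

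In autophagy, cytoplasm is enclosed by a growing double membrane, the phagophore, and delivered to lysosomes. ULK1 phosphorylates the machinery that starts the membrane, WIPI proteins read the phosphoinositide made there, and the ATG12 and ATG5 conjugate helps attach ATG8 proteins to lipid. SQSTM1 (p62) and NBR1 bind ubiquitylated cargo and ATG8 proteins together, and are themselves degraded with the cargo. The kinase GCN2 phosphorylates eIF2 when tRNAs are uncharged or ribosomes stall, which favours translation of the transcription factor ATF4. ATF4 and its target DDIT3 (CHOP) are known to raise transcription of several autophagy genes during long starvation, so the question put to these libraries was whether the 10 transcripts moved with either drug or with genotype.

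The series held 15 groups of 3 libraries. Cells labelled AAVS1, RNF25 KO and GCN2 KO were untreated, given 5 uM azacytidine (azaC), a nucleoside analogue that enters RNA and DNA, or given 25 nM halofuginone (HF), which blocks the charging of proline tRNA, for 4 h. Cells labelled eS31 K113R, ZNF598 KO and RNF25 GCN2 DKO were untreated or given azaC, with the same dose and time. RNF25 and ZNF598 encode E3 ligases that mark stalled and collided ribosomes with ubiquitin, and eS31 is the small-subunit ribosomal protein encoded by RPS27A. AAVS1 is the name of a safe-harbour locus, and these cells were used as the reference. The labels call the libraries biological replicates and do not say whether a genotype was 1 clone or several, so genotype and clone cannot be told apart. Replicates 2 and 3 of untreated eS31 K113R carry another protein name and another residue name in their titles. They were placed by the column name in their descriptions.

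Libraries held 1135498 to 2478875 counts (median 1541554), so that the median tested gene had 27 to 66 reads in a library. EIF2AK4, the gene of GCN2, stood at 15.8 to 22.3 CPM (reads scaled to a common library total, group means) in the GCN2 KO groups and at 43.7 to 51.5 CPM in AAVS1. Libraries labelled RNF25 GCN2 DKO had 39.6 CPM of it without drug and 35.2 CPM with azaC. Its mRNA therefore does not check that label. ZNF598 was at 37.2 and 45.6 CPM in ZNF598 KO against 62.5 and 89.8 CPM in AAVS1. RNF25 had 0 to 7 counts in every library and checks nothing, and the counts carry no sequence of eS31. AAVS1 untreated replicate 2 and RNF25 KO azaC replicate 2 stood apart in how counts varied with GC content, and the latter had the lowest mitochondrial share (3.14%, next 5.17%). Of 14 haematopoietic markers only KIT passed the filter on low counts, and 5 of the 14 had no read in any library, in a line derived from leukaemia cells. Every within-group pair of libraries differed beyond sampling noise.

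GABARAPL2, which passed between genotypes, and MAP1LC3B, which came near to it in ZNF598 KO, both lie on the long arm of chromosome 16, and bases in front of them are shown first for that reason. The RefSeq sequence (GRCh38.p14, + strand, 5′ to 3′) of chr16:75566129-75566350 is the 222 bases that end just before the first annotated base of GABARAPL2. The sequence of chr16:87392280-87392308 is a 29-base stretch before a MAP1LC3B start, inside an annotated exon of another transcript, with the match to the antioxidant response element core in capitals.
GABARAPL2: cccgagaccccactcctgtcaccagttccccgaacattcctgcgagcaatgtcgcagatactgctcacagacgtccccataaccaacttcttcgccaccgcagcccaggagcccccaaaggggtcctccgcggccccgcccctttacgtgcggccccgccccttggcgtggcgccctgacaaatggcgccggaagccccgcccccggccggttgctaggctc
MAP1LC3B: gcgagtcaccTGACCAGGCtgcgggctga

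All 10 genes had RefSeq promoter windows, 14 in all, each from 250 bases before to 50 after a start. Only the 250 bases before the start were searched, in these and in all other windows. Letters of 3 motifs were searched on both strands, each motif by itself. The core of the C/EBP-ATF response element, TGATGNAA, was in 0 of the 14 windows and in 3.14% of all 35116 windows of this length. The E-box CACGTG, which TFEB and related factors bind, was in 0 of the 14 and in 6.34% of all windows. The antioxidant response element core TGACNNNGC was in 1, the MAP1LC3B window printed above, 46 bases before the start, against 10.9% of all windows. A match or its absence says only which letters stand in these windows.

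Per kilobase of exon, the 10 transcripts spanned a wide range of levels. GABARAPL2 was the highest at 38.9 CPM per kilobase over all libraries, followed by MAP1LC3B at 16.2 and SQSTM1 at 15.7. NBR1 (8.46), GABARAPL1 (7.24), ATG5 (4.52), ULK1 (4.32) and ATG12 (3.44) lay in between. GABARAP (1.78) and WIPI1 (0.732) were the lowest on this scale. GABARAP had 0 to 21 reads in a library and WIPI1 0 to 12, with 4 and 5 libraries at 0, whereas each of the other 8 genes had at least 12 reads in every library. Both passed the filter through a few libraries, 10 of 45 for GABARAP and 3 of 45 for WIPI1, so the filter kept them through the groups where they were high. GABARAP also shares 30.5% of its exon length with an annotated gene on the same strand and 25.2% with a gene on the opposite strand. WIPI1 shares 28.1% with genes on the opposite strand. SQSTM1 overlaps MGAT4B and MRNIP on the opposite strand over 22% of its exons, and use of strand in counting is not given in the sources used here.

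**Figure D1:**
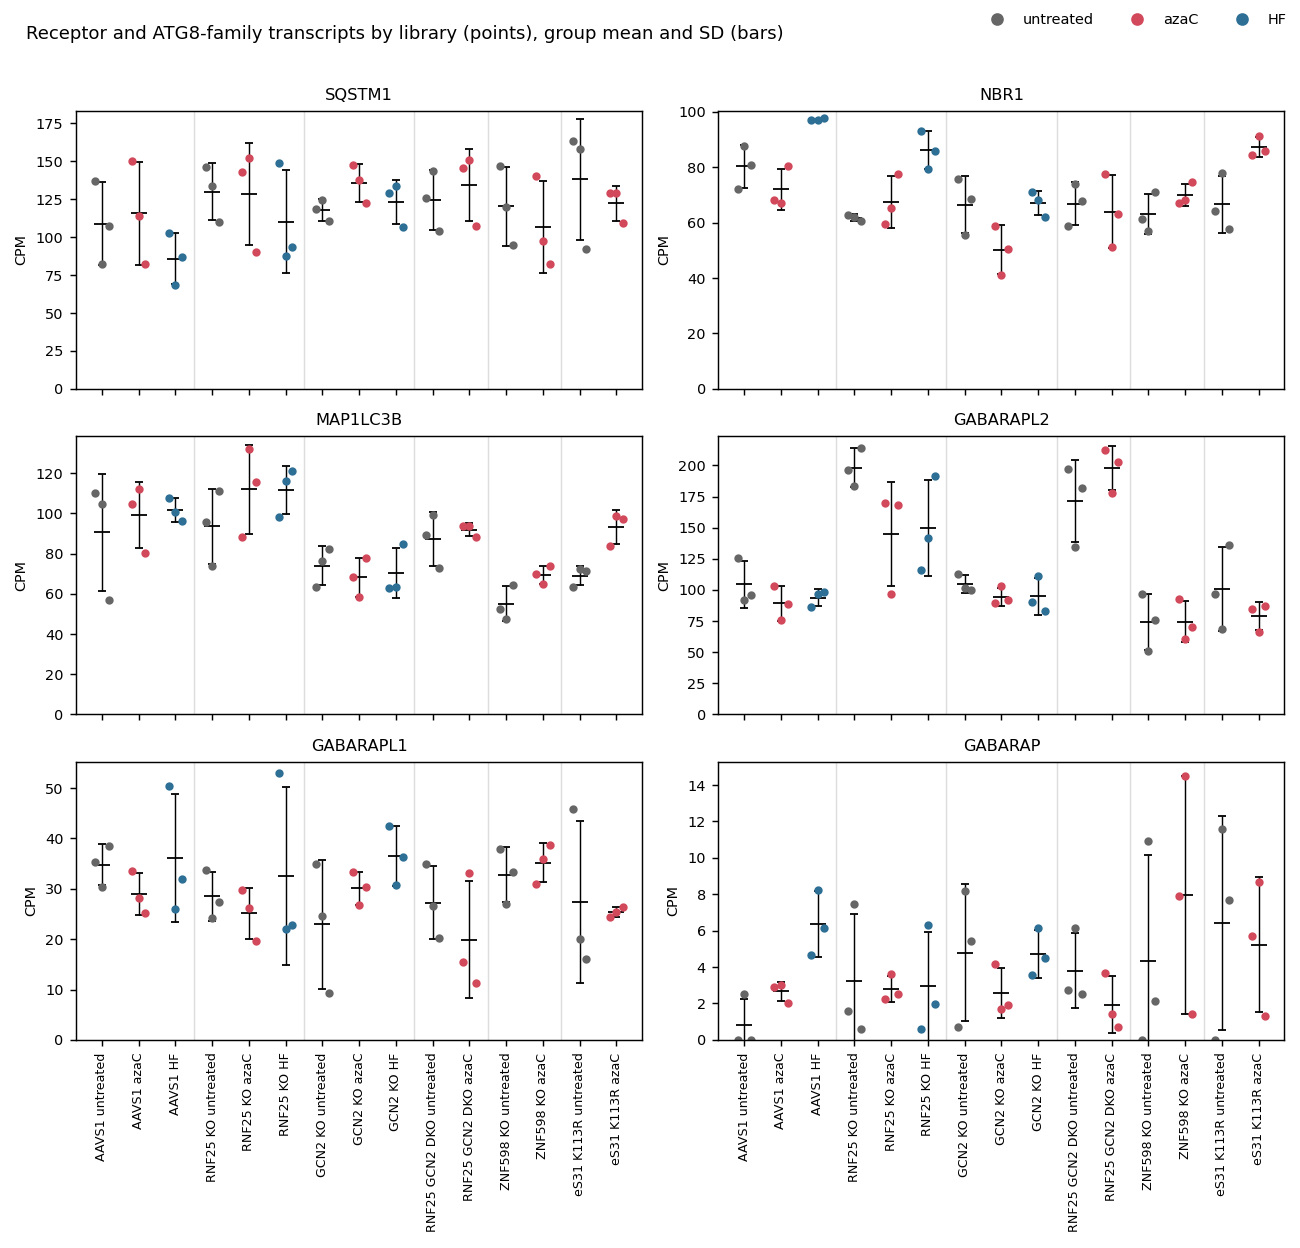
CPM of the 2 receptor genes and the 4 ATG8 genes in each library (points) with the group mean (line), over the 15 groups. GABARAPL2 stands between 96.7 and 214 CPM in the RNF25 KO and RNF25 GCN2 DKO libraries, and NBR1 is highest in HF-treated AAVS1 at 97 to 97.6 CPM.

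Neither drug gave a change of any of the 10 transcripts that passed the test in any of the 9 drug responses (azaC in 6 genotypes, HF in 3). The edgeR quasi-likelihood test with Benjamini-Hochberg adjustment over all 11078 tested genes gave 0 of 90 calls, with 7 at an unadjusted p under 0.05, and DESeq2 also gave 0. An unadjusted p under 0.05 was found for 2.63% to 11.2% of all tested genes, depending on the response. Among all tested genes the share that passed with azaC was 0.117% in AAVS1, 0.469% in RNF25 KO, 0% in GCN2 KO, 0% in the libraries labelled RNF25 GCN2 DKO, 0.117% in ZNF598 KO and 0.515% in eS31 K113R. With HF it was 1.54% in AAVS1, 1.73% in RNF25 KO and 1.24% in GCN2 KO. A share this low means that 0 of 10 is near what the background gives. In the same libraries the stress gene DDIT3 rose with azaC by a log2 of 1.82 in AAVS1, 3.10 in RNF25 KO, 2.60 in ZNF598 KO and 3.13 in eS31 K113R. With HF DDIT3 rose by 3.38 in AAVS1, 2.94 in RNF25 KO and 1.62 in GCN2 KO. With azaC it was at 0.10 in GCN2 KO and at −0.01 in the libraries labelled RNF25 GCN2 DKO, where it did not pass.

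The intervals say how large a response these libraries could hide. For the 8 genes with more reads, the log2 changes lay between −0.63 and 0.66, and the widest 95% intervals reached −1.22 and 1.39. Over all 10 genes 49 of 90 changes were positive. The median of the 10 log2 changes was 0.14 for HF in AAVS1, 0.32 for HF in RNF25 KO and −0.03 for HF in GCN2 KO, beside a median over all tested genes of 0.01, 0.00 and 0.00. For azaC the medians were −0.10 in AAVS1, 0.06 in RNF25 KO, 0.06 in GCN2 KO, −0.05 in the libraries labelled RNF25 GCN2 DKO, 0.12 in ZNF598 KO and −0.02 in eS31 K113R. The 9 responses share no library between genotypes, but azaC and HF in a genotype share its untreated libraries.

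**Figure D2:**
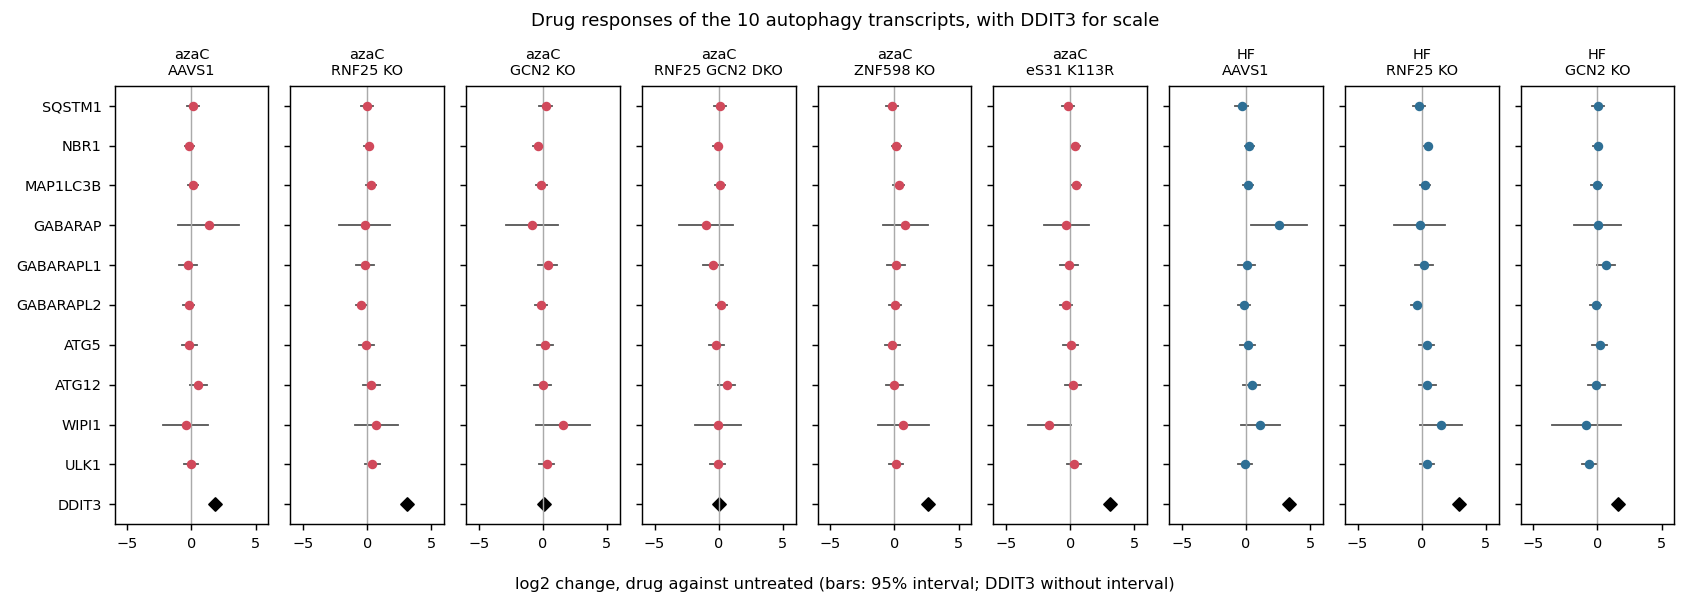
Log2 change with its 95% interval for each of the 10 genes (rows) in the 9 drug responses (panels), drug against untreated of the same genotype, 3 libraries a group. The intervals of GABARAP and WIPI1, which had few reads, are the widest, and no change passed the test.

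NBR1, the receptor that also binds peroxisomes and protein aggregates, came nearest to a drug response. Untreated AAVS1 libraries held 72.3, 87.8 and 80.9 CPM, azaC-treated ones 68.3, 67.1 and 80.5 CPM, and HF-treated ones 97, 97 and 97.6 CPM. In RNF25 KO the values were 62.8, 62.2 and 60.5 CPM untreated, 59.3, 65.4 and 77.5 CPM with azaC and 93.1, 79.4 and 85.8 CPM with HF. In both genotypes every HF library lay above every untreated and every azaC library. How many of all tested genes separate in this way was not counted, here or below, so non-overlap is only a description. The log2 change with HF was 0.48 ± 0.17 (SE, 3 against 3 libraries) in RNF25 KO (adjusted p = 0.171, edgeR) and 0.27 ± 0.17 in AAVS1 (adjusted p = 0.594), and neither passed.

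In GCN2 KO, NBR1 stood at 75.6, 55.5 and 68.5 CPM untreated, at 58.9, 41.2 and 50.6 CPM with azaC and at 70.9, 68.2 and 62.2 CPM with HF. There the HF libraries lay within the untreated range and the azaC libraries overlapped it. The log2 change was 0.01 ± 0.17 with HF and −0.41 ± 0.17 with azaC, and neither passed (adjusted p = 0.998 and 1). The direct test of the HF response in GCN2 KO minus that in AAVS1 gave −0.26 for NBR1 (95% interval −0.74 to 0.22, adjusted p = 0.904), so a difference was not shown. azaC minus HF gave −0.43 in AAVS1, −0.35 in RNF25 KO and −0.42 in GCN2 KO for NBR1, with the libraries of both drugs not overlapping in any of these. None of the 10 genes passed in edgeR or DESeq2 in these comparisons (adjusted p for NBR1 0.308, 0.327 and 0.312), where 0.993%, 0.731% and 1.07% of all genes did. An unadjusted p under 0.05 was found for 1, 1 and 3 of the 10, beside 9.45%, 13.8% and 11.1% of all tested genes. In eS31 K113R NBR1 stood at 64.2, 78 and 57.5 CPM untreated and at 84.5, 91.4 and 85.9 CPM with azaC, again without overlap (0.39 ± 0.17, adjusted p = 0.852). A joint test over all 9 drug responses gave NBR1 an adjusted p of 0.0867 (0.0362 with the replicate number as a block). Without the block 0 of the 10 genes passed in this joint test, beside 3.62% of all tested genes, and 1 had an unadjusted p under 0.05, beside 12.3%. That test was added after the values were seen.

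SQSTM1, a known target of ATF4 and of the antioxidant factor NRF2, showed no drug response past the test. In AAVS1 it stood at 137, 82.3 and 107 CPM untreated, 150, 114 and 82.6 CPM with azaC and 102, 68.5 and 86.8 CPM with HF, with all 3 ranges overlapping. Its 9 log2 changes ran from −0.33 (HF in AAVS1) to 0.21 (azaC in GCN2 KO), and 4 were positive. The intervals lay within −0.82 and 0.69, so a doubling or a halving with either drug was outside them in each genotype.

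Among the ATG8 genes, MAP1LC3B, which encodes LC3B, the protein usually followed as a marker of autophagosomes, gave 7 positive log2 changes out of 9, between −0.12 and 0.43. The highest was azaC in eS31 K113R, where MAP1LC3B went from 63.4, 72.5 and 71.4 CPM to 83.6, 98.9 and 97.1 CPM without overlap but did not pass (0.43 ± 0.20, adjusted p = 0.899). In AAVS1 it stood at 110, 105 and 57.2 CPM untreated and at 108, 101 and 96 CPM with HF. Untreated replicate 3 lay below all 3 HF libraries, replicate 2 lay among them and replicate 1 above them.

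GABARAPL1, a known FOXO target, had log2 changes between −0.44 (azaC, libraries labelled RNF25 GCN2 DKO) and 0.66 (HF, GCN2 KO), with overlap of the libraries in AAVS1, where it stood at 35.3, 30.4 and 38.5 CPM untreated and at 50.4, 26 and 31.8 CPM with HF. GABARAPL2 (GATE-16), known for roles in Golgi traffic and late autophagosome steps, had its lowest change with azaC in RNF25 KO. There it stood at 196, 183 and 214 CPM untreated and 170, 96.7 and 168 CPM with azaC, without overlap (−0.46 ± 0.22, adjusted p = 0.521). GABARAP had 0, 5 and 0 reads in untreated AAVS1 and 6, 13 and 12 in HF-treated AAVS1, and its log2 change of 2.58 ± 1.08 did not pass (adjusted p = 0.314).

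Of the core genes, ULK1 in AAVS1 stood at 37.9, 32.4 and 46.9 CPM untreated and 33.4, 33 and 42.6 CPM with HF. In GCN2 KO it stood at 28.3, 19.1 and 39.7 CPM untreated, 42.3, 34.5 and 29.7 CPM with azaC and 20.6, 9.21 and 26.4 CPM with HF. HF-treated GCN2 KO libraries thus lay below the azaC-treated ones, and overlapped the untreated ones (−0.63 ± 0.29 against untreated, adjusted p = 0.461). Between azaC and HF in GCN2 KO the log2 difference of ULK1 was 0.91 ± 0.28 (adjusted p = 0.124), which did not pass. It passed with the replicate number as a block (0.0323), although the numbers did not pair the samples there, and without HF replicate 3 (0.0498).

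ATG5 and ATG12, the acceptor and the ubiquitin-like part of the conjugate, gave log2 changes of −0.19 to 0.38 and −0.08 to 0.62. The highest ATG12 change was azaC in the libraries labelled RNF25 GCN2 DKO, from 29.4, 31.3 and 17.1 to 39.2, 47.8 and 33.6 CPM, without overlap and without passing (smallest adjusted p over its 9 responses 0.694). WIPI1, one of the genes known to rise with ATF4 and TFEB activity, had 6, 3 and 3 reads in untreated AAVS1 and 11, 5 and 12 with HF. In RNF25 KO it had 1, 2 and 5 reads untreated and 9, 10 and 6 with HF. Scaled to the library totals, the summed reads of HF against untreated gave a ratio of 2.29 in AAVS1 (95% counting interval 1.13 to 4.94) and 2.89 in RNF25 KO (1.26 to 7.4), intervals that cover counting error only. The filter kept WIPI1 through 3 of 45 libraries, and these HF-treated groups have its highest means. The ratios are therefore a description and not support for a rise. In the test across libraries the log2 changes were 1.12 ± 0.76 and 1.505 ± 0.81 and did not pass (adjusted p = 0.644 and 0.527).

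**Figure D3:**
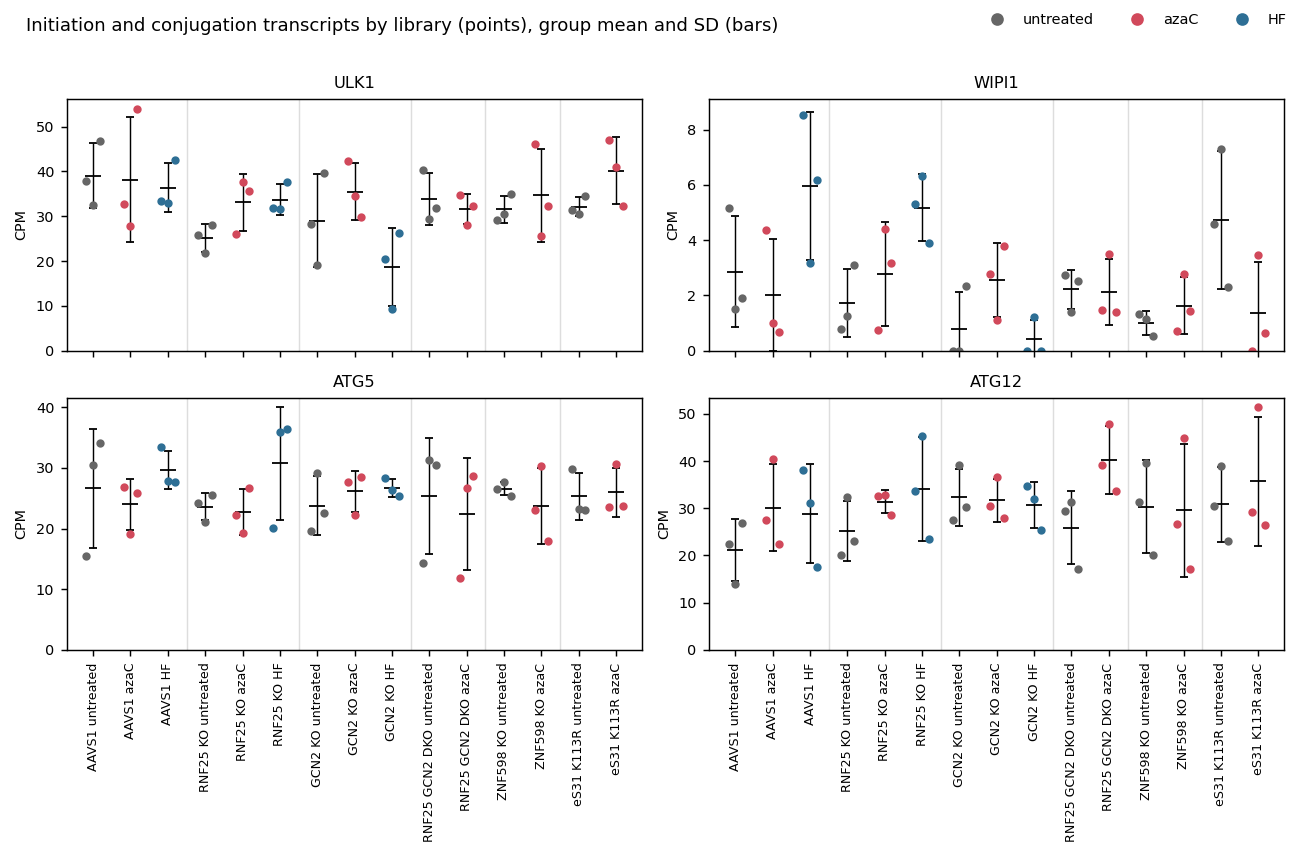
CPM of ATG5, ATG12, WIPI1 and ULK1 in each library (points) with the group mean (line), over the 15 groups. ULK1 is lowest in HF-treated GCN2 KO (9.21 to 26.4 CPM), where WIPI1 has no read in 2 of the 3 libraries.

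The direct tests of a difference between drug responses gave no call among the 10 genes in edgeR or DESeq2. For azaC minus the response of AAVS1, 0% of all tested genes passed in RNF25 KO, 0.00903% in GCN2 KO, 0.0451% in the libraries labelled RNF25 GCN2 DKO, 0% in ZNF598 KO and 0.00903% in eS31 K113R. The shares were 0.117% for the libraries labelled RNF25 GCN2 DKO minus RNF25 KO, 0% for HF in RNF25 KO minus AAVS1 and 0.334% for HF in GCN2 KO minus AAVS1. With so few calls over the whole table, 0 of 10 in each is not a statement about these genes.

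Genotype gave the clearest difference, and it was in GABARAPL2. Untreated AAVS1 libraries held 126, 91.8 and 95.7 CPM of GABARAPL2, untreated RNF25 KO libraries 196, 183 and 214 CPM, and untreated libraries labelled RNF25 GCN2 DKO 197, 135 and 182 CPM. Every library of both genotypes lay above every AAVS1 library. GABARAPL2 rose in RNF25 KO by a log2 of 0.93 ± 0.22 (adjusted p = 0.0123), the only one of the 10 genes to pass, beside 1.62% of all tested genes. Libraries labelled RNF25 GCN2 DKO differed from AAVS1 by 0.72 ± 0.22, which did not pass (adjusted p = 0.109, 0 of the 10 genes by edgeR or DESeq2, beside 1.42% of all genes, and 1 at an unadjusted p under 0.05, beside 9.18%). With the replicate number as a block it passed there (adjusted p = 0.0271). In bulk libraries, more cells with a transcript and more of it per cell cannot be told apart.

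With the drugs present, in comparisons added after the untreated values were seen, GABARAPL2 passed in the azaC-treated DKO libraries but in neither drug in RNF25 KO. With azaC GABARAPL2 stood at 103, 75.7 and 88.7 CPM in AAVS1, at 212, 178 and 203 CPM in the libraries labelled RNF25 GCN2 DKO and at 170, 96.7 and 168 CPM in RNF25 KO. It was higher in the libraries labelled RNF25 GCN2 DKO by a log2 of 1.15 ± 0.22 (adjusted p = 0.000923, 1 of the 10 genes, beside 1.55% of all genes), and this passed with any of the 6 libraries left out (1.03 to 1.26). In RNF25 KO the value was 0.70 ± 0.22 (adjusted p = 0.105, 0 of the 10 genes, beside 2.26% of all genes, and 1 at an unadjusted p under 0.05, beside 12%). Without RNF25 KO azaC replicate 2, the library with 96.7 CPM that stands apart in GC content and mitochondrial share, it was 0.93 and passed (adjusted p = 0.0203).

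With HF the AAVS1 libraries held 86.1, 97 and 98.1 CPM and the RNF25 KO libraries 116, 142 and 192 CPM of GABARAPL2, without overlap. The log2 difference was 0.67 ± 0.22 (adjusted p = 0.17, 0 of the 10 genes, beside 1.53% of all genes, and 1 at an unadjusted p under 0.05, beside 7.71%), and passed with the replicate block (0.0493). DESeq2 also called none of the 10 in RNF25 KO with azaC or with HF. In the order of the 15 group means the 5 groups lacking RNF25 by label came first, from 198 ± 15.5 CPM (SD, n = 3) in untreated RNF25 KO to 145 ± 41.8 CPM in azaC-treated RNF25 KO, and untreated GCN2 KO came next at 105 CPM. Each gap between neighbours in that order was within the larger of both SDs. A joint test of the 5 untreated genotypes against AAVS1, also added later, called GABARAPL2 (adjusted p = 2.54e-05) and no other of the 10 genes, beside 6.16% of all tested genes.

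The untreated call of GABARAPL2 in RNF25 KO rested on several libraries. Left out singly, AAVS1 replicates 2 and 3 and RNF25 KO replicate 3 ended it (adjusted p = 0.103, 0.0602 and 0.0781), as did a fit to the 6 libraries alone (0.0822) and leaving out both libraries that stand apart (0.0547). The log2 value stayed between 0.85 and 1.08 when any 1 of the 6 was left out.

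The neighbours of GABARAPL2 on chromosome 16 stood higher in the same libraries. A run of 13 consecutive tested genes from GLG1 to TERF2IP, GRCh38 chromosome 16 from 74447427 to 75761872 (1.31 Mb), holds GABARAPL2 (75566351 to 75577881, + strand). This stretch was picked after its values were seen and carries no test. All 12 other genes in it had positive log2 differences from AAVS1 in untreated RNF25 KO and in the untreated DKO libraries, with medians of 1.06 and 0.99, and 6 of the 12 passed in each. They were also all positive with azaC (medians 0.82 in RNF25 KO and 1.12 in the DKO libraries) and with HF in RNF25 KO (1.00), with 6, 6 and 8 passing. The medians of the same 12 genes were 0.00 in untreated GCN2 KO, −0.39 in ZNF598 KO and −0.06 in eS31 K113R.

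Within the run, KARS, the lysyl-tRNA synthetase gene 61.1 kb from GABARAPL2, had a log2 difference of 1.02 in untreated RNF25 KO (adjusted p = 5.94e-06), and TERF2IP, which encodes the telomere protein RAP1, 1.04 (adjusted p = 0.00138). CFDP1 (1.26), GLG1 (1.15), BCAR1 (1.77) and FA2H (1.29) passed too, while RFWD3 (0.42), WDR59 (0.33) and ZFP1 (0.33) were among those that did not. Outside it, the nearest named genes with a test were PSMD7, 151 kb before, at 0.23, and MON1B, 1429 kb after, at −0.55. The 219 tested genes of the whole long arm had a median of 0.00 in untreated RNF25 KO, with 8 higher and 0 lower. Whether the number of copies of this stretch differs between the lines was not tested.

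**Figure D4:**
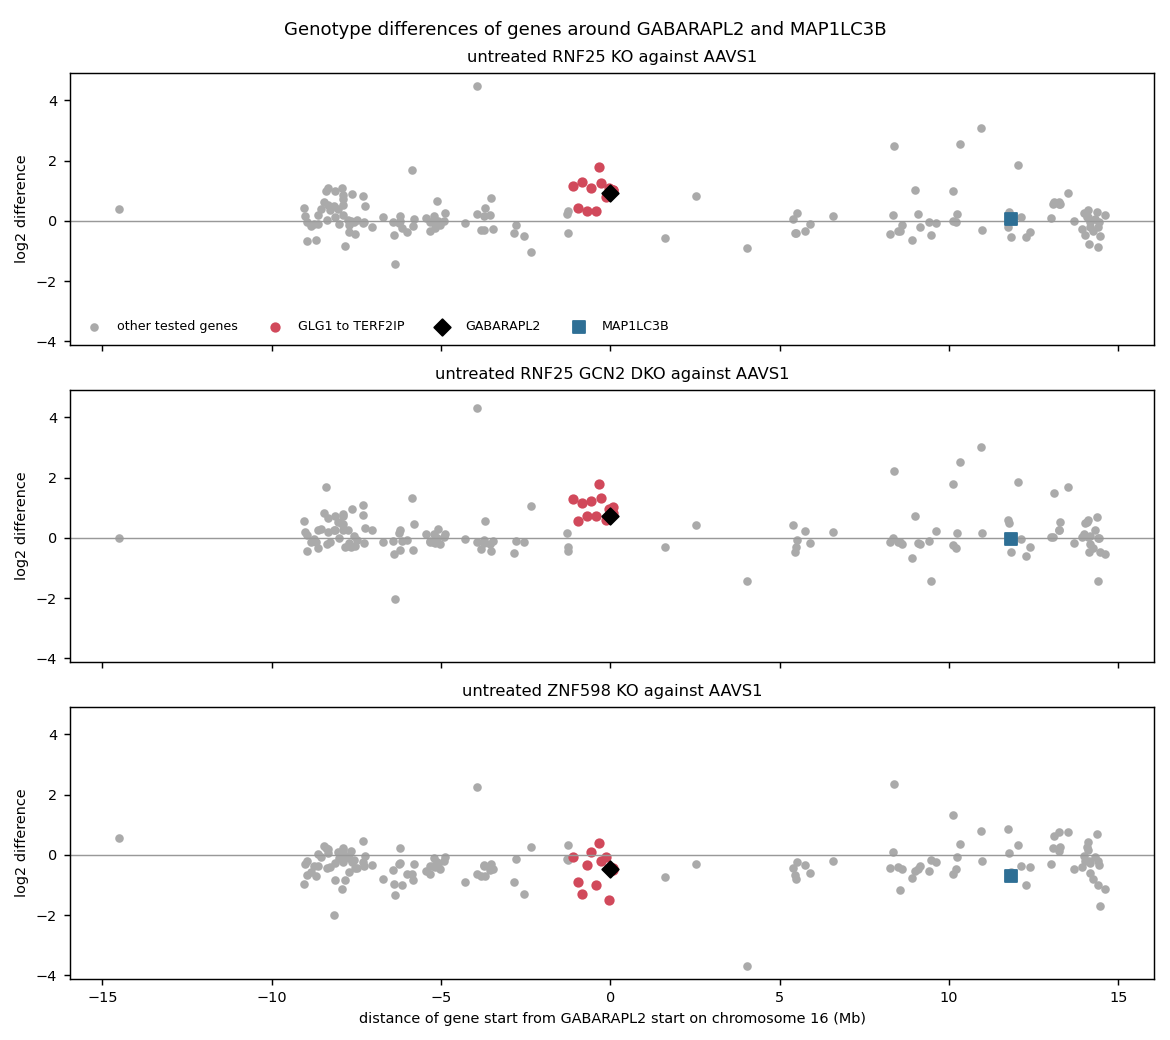
Log2 difference from untreated AAVS1 (vertical axis) of each tested gene by the distance of its start from that of GABARAPL2 in Mb (horizontal axis), in untreated RNF25 KO, RNF25 GCN2 DKO and ZNF598 KO. The run from GLG1 to TERF2IP (red) sits above 0 in the upper 2 panels, with medians of 1.06 and 0.99 without GABARAPL2, against −0.39 in ZNF598 KO.

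MAP1LC3B, 11.8 Mb further along the same arm (87383995 to 87404779, + strand), had its lowest of the 15 group means in untreated ZNF598 KO. Its untreated AAVS1 libraries held 110, 105 and 57.2 CPM, and the untreated ZNF598 KO libraries 52.5, 47.7 and 64.6 CPM, which overlap through AAVS1 replicate 3. The log2 difference of −0.72 ± 0.20 did not pass (adjusted p = 0.0736, 0 of the 10 genes by edgeR or DESeq2, beside 0.93% of all genes, and 3 at an unadjusted p under 0.05, beside 8.92%). It passed with the replicate block (0.0382) and without AAVS1 untreated replicate 3 (−0.96, adjusted p = 0.00613). With azaC the values were 105, 112 and 80.5 CPM in AAVS1 and 69.8, 64.9 and 73.9 CPM in ZNF598 KO, without overlap. The difference of −0.51 ± 0.20 did not pass (adjusted p = 0.449, 0 of the 10 genes, beside 0.677% of all genes, and 1 at an unadjusted p under 0.05, beside 7.16%).

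In ZNF598 KO most of the long arm moved in the same direction as MAP1LC3B. Of its 219 tested genes 170 had negative log2 differences untreated, with a median of −0.32, and 183 with azaC, with a median of −0.38, beside 0.00 and 0.01 over all tested genes. The 22 tested genes within 2 Mb of MAP1LC3B had medians of 0.10 untreated and −0.53 with azaC. The short arm had medians of 0.14 and −0.06. GABARAPL2 in untreated ZNF598 KO stood at 96.4, 51.2 and 75.8 CPM, a difference of −0.48 ± 0.23 that did not pass. The part of the copy number of this arm in these values was not tested.

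In untreated GCN2 KO and eS31 K113R, 0 of the 10 genes passed by edgeR or DESeq2, beside 1.05% and 2.87% of all tested genes. An unadjusted p under 0.05 was found there for 0 and 1 of the 10, beside 9.58% and 11.8%. With azaC 0 of 10 passed in either, beside 1.25% and 3.59%. Of the 10, 2 and 0 had an unadjusted p under 0.05 with azaC, beside 8.93% and 13%. The 2 were NBR1 (−0.52 ± 0.17, adjusted p = 0.169) and MAP1LC3B (−0.54 ± 0.20, adjusted p = 0.268) in azaC-treated GCN2 KO, each below every azaC-treated AAVS1 library.

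In HF-treated cells ULK1 passed narrowly as lower in GCN2 KO than in AAVS1, in a comparison added after the untreated values were seen. WIPI1 passed there too, but it was kept by the filter through only 3 of 45 libraries and HF-treated AAVS1 is its highest group, so its values are given as a description. It had 11, 5 and 12 reads in HF-treated AAVS1 and 0, 2 and 0 in HF-treated GCN2 KO. Scaled to the library totals, the summed 28 and 2 reads give a ratio of 14.7 (95% counting interval 3.7 to 127). In edgeR WIPI1 was lower by a log2 of −3.64 ± 0.98 (adjusted p = 0.0227), a value that depends on how so few reads are smoothed. Its call is not taken as support, because HF-treated AAVS1 helped the gene past the filter. In untreated cells the reads were 6, 3 and 3 in AAVS1 and 0, 0 and 3 in GCN2 KO, and the HF response of GCN2 KO minus that of AAVS1 was −1.99 (95% interval −5.18 to 1.21, adjusted p = 0.887).

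ULK1 stood at 33.4, 33 and 42.6 CPM in HF-treated AAVS1 and at 20.6, 9.21 and 26.4 CPM in HF-treated GCN2 KO, with every GCN2 KO library below every AAVS1 library (−0.95 ± 0.28, adjusted p = 0.0468). Apart from WIPI1, ULK1 was the only call among the 10 in HF-treated GCN2 KO against AAVS1, beside 3.75% of all tested genes. Beside 14.5% of all tested genes, 5 of the 10 had an unadjusted p under 0.05, ULK1 and WIPI1 among them. The others were NBR1 (−0.54 ± 0.17, adjusted p = 0.0593, with the replicate block 0.0324, DESeq2 0.0394), MAP1LC3B (−0.52 ± 0.20, 0.149) and SQSTM1 (0.52 ± 0.24, 0.292). Each was without overlap of the libraries, a description whose share over all tested genes was not counted. The median of the 10 log2 differences was −0.29, beside 0.00 over all tested genes.

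Both calls were near the threshold. Leaving out 1 library ended that of ULK1 in 5 of 6 cases (log2 −1.31 to −0.63, adjusted p 0.0166 to 0.342), with GCN2 KO replicate 3 the exception, and that of WIPI1 in 4 of 6 (adjusted p 0.016 to 0.152), with AAVS1 replicate 2 and GCN2 KO replicate 2 the exceptions. With no filter on low counts neither passed (WIPI1 0.0584, ULK1 0.124). In an edgeR fit to the 6 libraries alone ULK1 did not pass (adjusted p = 0.103).

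A wider list of 78 genes of the pathway was chosen with earlier results of these data known. Of its 67 tested genes, DDIT3 and the receptor gene CALCOCO2 (NDP52, which binds ubiquitin-coated bacteria and mitochondria) passed with HF in AAVS1, and DDIT3 alone in RNF25 KO and GCN2 KO. In AAVS1 the CALCOCO2 level was 44.1 ± 4.23 CPM (SD, n = 3) before and 84.7 ± 12.0 CPM after HF, a log2 rise of 0.93 ± 0.20 (adjusted p = 0.00329, and 0.133 in a fit to the 6 libraries alone). It stood at 75.7 ± 5.86 CPM in HF-treated RNF25 KO and at 48.3 ± 6.48 CPM in HF-treated GCN2 KO, where the difference from HF-treated AAVS1 passed (−0.81, adjusted p = 0.00846, but 0.0709 without AAVS1 HF replicate 1, 0.0732 without GCN2 KO HF replicate 3 and 0.0912 with no filter on low counts). The direct test of HF in GCN2 KO minus AAVS1 did not pass for it. With azaC, DDIT3 was the only one of the 67 to pass in AAVS1, ZNF598 KO and eS31 K113R, DDIT3 and ATF4 (0.90 ± 0.19, adjusted p = 0.0103) passed in RNF25 KO, and none in GCN2 KO or in the libraries labelled RNF25 GCN2 DKO. In fits to the 6 libraries of a response alone DDIT3 in AAVS1 with azaC (adjusted p = 0.224) and ATF4 (0.107) did not pass, and ATF4 also lost its call without any 1 untreated RNF25 KO library or azaC replicate 2 (0.0501 to 0.218). The joint test over the 9 drug responses called 5 of the 67, beside the 3.62% of all tested genes given above. They were DDIT3, ATF4 (adjusted p = 0.00162), CALCOCO2 (0.00141), the transcription factor gene FOXO3 (0.00803, but 0.18 with no filter on low counts) and KEAP1, which encodes the NRF2 inhibitor (0.035). KEAP1 lost its call (0.0609 to 0.113) without azaC replicate 1 or HF replicate 2 of AAVS1, without azaC replicate 2 or HF replicate 2 or 3 of RNF25 KO, and without azaC replicate 2 or HF replicate 1 or 2 of GCN2 KO. The initiation, class III PI3K, phagophore, conjugation and fusion lists held 3 to 10 tested genes each and gave 0 calls in the single responses, where 0% to 1.73% of all genes passed, so these counts say nothing particular about the lists.

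Between untreated genotypes a few of the 67 genes passed, from the lysosome, receptor and upstream regulator lists. In GCN2 KO 1 was higher and 2 were lower, beside 1.05% of all tested genes. In eS31 K113R 1 was lower, beside 2.87%. The joint test of the untreated genotypes called 3 of the 67, beside 6.16%. The lysosomal protease gene CTSB rose in GCN2 KO, from 43.2 ± 6.08 CPM in AAVS1 to 86.6 ± 14.3 CPM (log2 1.01), and also passed against AAVS1 with the same drug (1.06 with azaC, and 0.72 with HF, which was lost without 4 of the 6 libraries, 0.0838 to 0.267). FUNDC1, a mitophagy receptor, fell there by 0.94 and TFE3, a transcription factor of lysosomal genes, by 1.22. Leaving out single libraries ended each of these 3 untreated calls (CTSB 0.0641 without AAVS1 replicate 2 and 0.0735 without GCN2 KO replicate 3, FUNDC1 0.0814 to 0.384, TFE3 0.0679 to 0.221), as did a fit to the 6 libraries alone. LAMP2, the lysosomal membrane protein, stood at 149 ± 21.2 CPM in AAVS1 and 72.9 ± 17.2 CPM in eS31 K113R (−1.04, adjusted p = 0.000866). With azaC it stood at 66.9 ± 18.5 CPM in eS31 K113R and also passed against azaC-treated AAVS1 (−1.09, adjusted p = 0.000386). Untreated GCN2 KO held 88.6 ± 14.7 CPM of LAMP2, which did not pass against AAVS1. FUNDC1 and TFE3 stood at 41.0 ± 10.6 and 23.3 ± 5.71 CPM in untreated eS31 K113R. They stood at 70.0 ± 23.5 and 42.9 ± 10.2 CPM in untreated AAVS1, and neither difference passed. With untreated eS31 K113R represented by replicate 1 alone, whose title carries the genotype name, the untreated LAMP2 difference was −0.69. In a fit to the 6 untreated libraries LAMP2 did not pass (adjusted p = 0.0879). The titles of the azaC-treated eS31 K113R libraries all carry the genotype name. In azaC-treated eS31 K113R FUNDC1 (−0.87), CTSL (−0.89) and the ER-phagy receptor gene RETREG1 (−1.20) were also lower than in azaC-treated AAVS1, and each of these 3 calls was lost without some single library (0.052 to 0.276). RETREG1 was lower in HF-treated GCN2 KO as well (−1.44), but not with no filter on low counts (adjusted p = 0.0592). In untreated RNF25 KO, ZNF598 KO and the libraries labelled RNF25 GCN2 DKO 0 of the 67 passed in edgeR, with 4, 5 and 3 at an unadjusted p under 0.05. Of all tested genes 1.62%, 0.93% and 1.42% passed there, and 9.71%, 8.92% and 9.18% had an unadjusted p under 0.05.

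Several of the 10 transcripts varied with the replicate number of the labels. ATG12 was highest in replicate 2 in 12 of 15 groups and lowest in replicate 3 in 12, and GABARAP was highest in replicate 2 in 13. SQSTM1 was highest in replicate 1 in 10 groups and lowest in replicate 3 in 12, GABARAPL1 was highest in replicate 1 in 11, and ULK1 was lowest in replicate 2 in 11. What the number stands for beyond a biological replicate is not given in the sources used here.

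The 10 genes did not vary as one. Over the 45 libraries the 45 pairwise Pearson correlations of their log2 CPM ran from −0.42 to 0.414 with a median of −0.01, across libraries that share depth and replicate number. Among all tested genes the most alike to GABARAPL2 over these libraries were COTL1 (r = 0.846) and FA2H (0.844), both on chromosome 16, and RPL9 (0.846) on chromosome 4. For ULK1 they were TAF6 (0.688), SFXN4 (0.629) and RPUSD1 (0.627), and for WIPI1 KIAA1217 (0.559), TBL1X (0.549) and AXIN1 (0.543).

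The order of groups was mostly unresolved. For 8 of the 10 genes each of the 14 gaps between neighbouring group means was within the larger SD. NBR1 ran from 50.2 ± 8.88 CPM in azaC-treated GCN2 KO to 97.2 ± 0.340 CPM in HF-treated AAVS1, with 3 of 14 gaps beyond the larger SD. MAP1LC3B ran from 55.0 ± 8.72 CPM in untreated ZNF598 KO to 112 ± 22.1 CPM in azaC-treated RNF25 KO, with 1 of 14 beyond it, the step from ZNF598 KO to azaC-treated GCN2 KO. From the lowest to the highest group mean, ATG5 spanned 1.37-fold (22.4 to 30.8 CPM), SQSTM1 1.61-fold (85.9 to 138 CPM), GABARAPL1 1.83-fold (19.9 to 36.5 CPM), ATG12 1.90-fold (21.1 to 40.2 CPM) and ULK1 2.15-fold (18.7 to 40.2 CPM).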

How the data were processed

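Per the labels' protocols, RNA of HAP1 cells was extracted on a Maxwell RSC, and 45 polyA libraries were made with a CORALL mRNA-Seq V2 kit. The deposited values are raw read counts per gene, for which the submitters' processing notes name STAR 2.7.10b, HTSeq 0.9.1 and the build GRCh38. The sources used here give neither the annotation release, nor the strand setting, nor whether the authors collapsed molecular identifiers. Entries with an Ensembl ID but no symbol (2862, 0.0286% of counts) stayed in the fit. Genes passing filterByExpr (minimum count 10, 11078 of 60676) were fitted over all 15 groups with edgeR 4.0.16 (R 4.3.3, TMM factors, quasi-likelihood, 30 residual degrees of freedom, biological coefficient of variation 22.1%). Calls are Benjamini-Hochberg adjusted p under 0.05 within a comparison. There were 25 planned comparisons, 7 added and 2 joint tests added after seeing the data. CPM uses TMM-scaled totals. DESeq2 1.42.0 was an alternative. Replicate numbers paired the samples in 13 of 24 comparisons of 2 groups (every same-number correlation of deviations over 0.1), the untreated genotype comparisons among them. The scripts were tested on simulated counts. The 10 genes and the wider lists were chosen with earlier results of these data known, and all 10 are named throughout. From the wider lists, genes that pass are named.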

Additional observations from a re-analysis of the deposited data

How the results depend on the processing

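Counts of the 10 genes called were the same in 34 of 34 comparisons with RLE scaling and in 288 of 303 fits with 1 library left out, and no call reversed. Most of these comparisons had no call in the main fit, where little else could come out. These shares therefore do not show that the few calls are stable. With DESeq2 (joint tests not run, and no adjusted p for GABARAP or WIPI1 in some comparisons) the only count to differ was HF-treated GCN2 KO against AAVS1, 3 in place of 2, through NBR1. With no low count filter HF-treated GCN2 KO against AAVS1 gave 0 in place of 2. With the fit to the groups compared, untreated RNF25 KO against AAVS1 gave 0 in place of 1 and HF-treated GCN2 KO against AAVS1 0 in place of 2; WIPI1 could not be tested there. Without both libraries that stand apart (AAVS1 untreated replicate 2, RNF25 KO azaC replicate 2), an alternative added after seeing the data, untreated RNF25 KO gave 0 and azaC-treated RNF25 KO 1. With the replicate block the count was 1 in place of 0 in untreated RNF25 GCN2 DKO and ZNF598 KO, azaC-treated and HF-treated RNF25 KO, azaC against HF in GCN2 KO (ULK1, adjusted p = 0.0323) and the joint drug test (NBR1, 0.0362), 2 in place of 1 in the joint genotype test, and 3 in place of 2, through NBR1, in HF-treated GCN2 KO against AAVS1. The other counts were the same with it. The replicate numbers did not pair the samples in 11 comparisons, azaC-treated RNF25 KO (GABARAPL2 0.0301 with the block) and azaC against HF in GCN2 KO among them; in 5 of the 11 every library correlated best with its own number. With 1 library left out the count ran from 0 to 1 in untreated RNF25 KO and ZNF598 KO, azaC-treated RNF25 KO, azaC against HF in GCN2 KO and HF-treated GCN2 KO against AAVS1, and from 1 to 2 in the joint genotype test. Over the whole table the block moved counts of calls by over 1.5 times in many comparisons, for example from 171 to 377 for HF in AAVS1, from 81 to 414 for azaC against HF in RNF25 KO, from 415 to 694 for HF-treated GCN2 KO and from 401 to 809 in the joint drug test. Low counts limit GABARAP and WIPI1, whose highest counts in a library were 21 and 12.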
